A study of Mus musculus with 6 samples.

Results

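The genes described here are 10 components of the insulin and growth hormone signalling pathways of the hepatocyte: Insr, Irs1, Irs2, Pik3r1, Akt2, Foxo1, Jak2, Ghr, Stat5b and Igf1. They were chosen as named genes, with earlier results of these data known. They are 10 of the 15565 rows of a gene count table, and each was found by its symbol. All 10 passed the filter on low counts, as did 13288 genes in all. RNA levels were compared between TERT(High) and TERT(Low) hepatocytes, the parenchymal cells of the liver, which were isolated by collagenase perfusion and sorted from the same mice. Tert is the gene of the reverse transcriptase that telomerase uses to lengthen telomeres. There were 3 mice, and each gave 1 TERT(High) and 1 TERT(Low) library, so that 6 libraries fall into 2 groups of 3. All mice were C57BL/6, were 2 months old and had the genotype Tert(CreERT2/+); R26(LSL-Tomato/+). In both groups, therefore, 1 copy of Tert carried CreERT2, a tamoxifen-dependent recombinase, and 1 copy of the R26 locus carried a Tomato reporter that Cre can switch on. The labels give neither the sex of the mice nor how the sort read the Tert level.

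Insulin binds its receptor tyrosine kinase on the hepatocyte surface, and the activated receptor phosphorylates the docking proteins IRS1 and IRS2. These recruit PI 3-kinase, whose lipid product activates the kinase AKT, and AKT keeps the transcription factor FOXO1 out of the nucleus, which lowers glucose production and the expression of Irs2 itself. Growth hormone binds a receptor without kinase activity of its own, which works through the kinase JAK2 and the transcription factor STAT5B. In liver this pathway drives transcription of Igf1, the source of most circulating insulin-like growth factor 1, and it sets much of the difference in liver gene expression between the sexes.

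Library totals, in units of 1e6 counts, were 53.6 to 64.1 for TERT(High) cells and 55.4 to 76.2 for TERT(Low) cells. Tert had 38, 33 and 30 counts in TERT(High) cells and 21, 21 and 12 counts in TERT(Low) cells of mice 1, 2 and 3. The order of the sort labels was thus found in each mouse, at very low counts. The log2 fold change of Tert was 0.87 and did not pass the test (edgeR adjusted p = 0.249, or 0.236 with the mouse as a block). The labelled cell type was checked by its markers. All 10 hepatocyte markers were present, with a summed level of 127800 to 145900 counts per 1e6 counts (CPM, scaled by edgeR's TMM method) in TERT(High) cells and 116200 to 141000 CPM in TERT(Low) cells. Alb, the albumin gene, is the largest term of that sum and lay higher in all TERT(High) libraries, while the median log2 fold change of the 10 markers, TERT(High) over TERT(Low), was -0.18. Asgr1, a subunit of the asialoglycoprotein receptor, was called lower, with 518, 413 and 393 CPM in TERT(High) cells and 767, 737 and 667 CPM in TERT(Low) cells (log2 fold change -0.71, edgeR adjusted p = 0.0485). Apoa1 and Ttr, genes of plasma proteins, were also lower in every TERT(High) library than in any TERT(Low) library (edgeR adjusted p = 0.0881 and 0.0792). Asgr1, Apoa1 and Ttr are all in the shortest quintile of genes by transcript length, described below, whose median log2 fold change was -0.46. After a correction for length and GC content their log2 fold changes were -0.33, -0.043 and -0.44, and none was called. Markers of other liver cells were low. Of these, the 11 endothelial markers summed to 49.9 to 84.0 CPM in TERT(High) cells and 34.2 to 44.4 CPM in TERT(Low) cells, without overlap. By edgeR 3 of the 11 (Kdr, Lyve1 and Dnase1l3) were called higher, beside 4.43% of all tested genes. The rest were not called. Among them Clec4g, Eng and Oit3 overlapped between the groups, and Clec4g alone had a negative log2 fold change (-0.079). After the same correction Kdr, Lyve1 and Dnase1l3 were at 0.95, 1.35 and 0.77 and Clec4g at 0.32, and none of them was called. The sums of 5 other marker lists overlapped between the groups. In TERT(High) cells they were 21.1 to 116.4 CPM for macrophages, 5.70 to 247.9 CPM for stellate cells, 26.9 to 135.4 CPM for neutrophils, 17.5 to 205.8 CPM for erythroid cells and 2.05 to 11.7 CPM for cholangiocytes. In TERT(Low) cells they were 18.0 to 54.8 CPM for macrophages, 5.21 to 14.5 CPM for stellate cells, 19.4 to 376.1 CPM for neutrophils, 39.8 to 61.0 CPM for erythroid cells and 2.13 to 3.26 CPM for cholangiocytes. The highest stellate, erythroid and cholangiocyte sums of TERT(High) cells were all in the library of mouse 1. Its stellate sum was mostly Col1a1 (126.6 CPM) and Col1a2 (105.2 CPM). Stellate sums in TERT(High) cells of mice 2 and 3 were 5.70 and 7.26 CPM. The neutrophil sum rests on 8 of 10 listed markers. In mouse 2 most of it was 1 gene, Lcn2, at 128.7 of 135.4 CPM in TERT(High) cells and 364.8 of 376.1 CPM in TERT(Low) cells. The cholangiocyte sum rests on 3 of 8 listed markers, and Krt7 and Krt19 were not analysed here. Lymphocyte markers, 7 of 12 in the table, summed to 1.18 to 2.32 CPM in TERT(High) cells and 0.599 to 0.878 CPM in TERT(Low) cells, also without overlap. The part of other cells in the differences below was not tested.

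RNA of 4 of the 10 genes was higher in TERT(High) hepatocytes: Insr, the insulin receptor, Irs1, a docking protein, Pik3r1, the main regulatory subunit of PI 3-kinase, and Jak2, the kinase of the growth hormone receptor. Each was at 2.03 to 2.68 times its TERT(Low) level. Akt2, the main AKT kinase of liver, was the only one of the 10 that was lower in TERT(High) cells of every mouse. The remaining 5, among them the hormone receptor Ghr, the transcription factors Foxo1 and Stat5b and the secreted product Igf1, did not pass the test. In edgeR's quasi-likelihood test (Benjamini-Hochberg adjusted p under 0.05 over all 13288 genes, group as the only term), 4 of 10 were called higher and 0 of 10 lower where 4.43% of all tested genes were called higher and 3.71% lower. Before adjustment, p was under 0.05 for the same 4 as higher (16.3% of all tested genes) and for 1, Akt2, as lower (12.4%). In these 4 genes all 3 TERT(High) values lay above all 3 TERT(Low) values, as in 17.5% of tested genes, and in Akt2 all lay below, as in 15.9%. The median log2 fold change, TERT(High) over TERT(Low), was 0.80 over the 10 genes and -0.013 over all tested genes. The 4 called genes are all in the longest quintile of genes by transcript length, described below. In that quintile 15.2% of genes were called higher and the median log2 fold change was 0.65.

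Each mouse gave a library to both groups. With the mouse as a block, edgeR called Insr, Pik3r1 and Jak2 (3 of 10 higher, where 5.43% of genes were called higher and 4.3% lower), and the adjusted p of Irs1 became 0.0544. DESeq2 called the 4 genes higher, where it called 11.3% of genes, and Akt2 lower, where it called 9.6%. The 4 edgeR calls rested on the complete set of libraries. Leaving out TERT(High) replicate 1 kept the call of Insr only (edgeR adjusted p = 0.0455), and leaving out any other single library left 0 of 10 called, as did leaving out both libraries of any mouse. DESeq2 runs that left out 1 library each were added after these results were seen, and in each of the 6 it called 3 to 5 of the 10 higher and Akt2 lower. Without TERT(High) replicate 3, Jak2 lost its call in DESeq2 (adjusted p = 0.0510), and Foxo1 gained one without TERT(Low) replicate 2 (0.0405) and Ghr without TERT(Low) replicate 3 (0.0273).

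**Figure D1:**
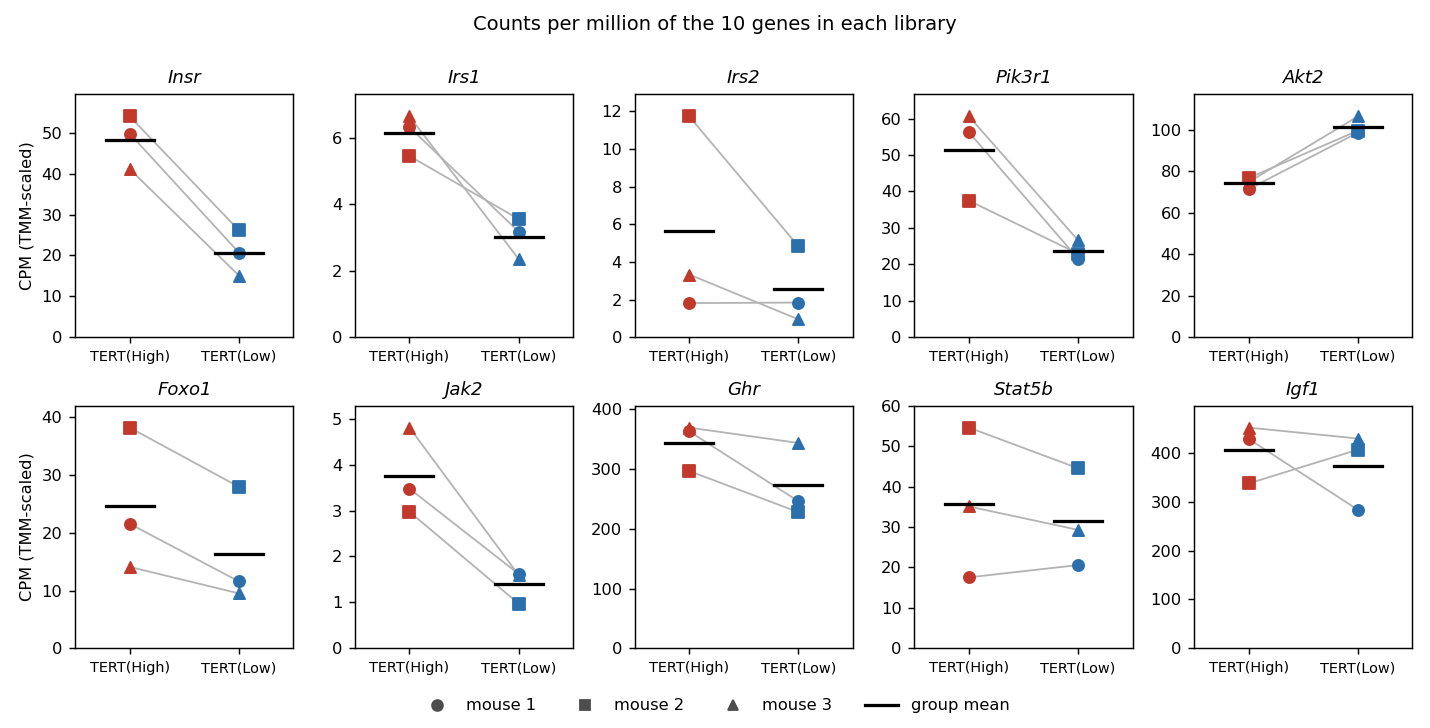
Level of each of the 10 genes (CPM, scaled by TMM, linear axes from 0) in the 6 libraries, TERT(High) left and TERT(Low) right in each panel. Symbols mark the mouse, grey lines join libraries of a mouse and black bars are group means. Insr, Irs1, Pik3r1 and Jak2 have all TERT(High) points above all TERT(Low) points, Akt2 has them below, and the remaining 5 overlap.

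Of the hormone receptors, Insr was called higher and Ghr was not called. Insr (chr8:3150922-3279649 in GRCm38) had 49.8, 54.05 and 41.1 CPM in TERT(High) cells of mice 1, 2 and 3, against 20.7, 26.2 and 15.1 CPM in TERT(Low) cells. The lowest TERT(High) value lay above the highest TERT(Low) value, and within either population mouse 2 was highest and mouse 3 lowest. The means were 48.3 ± 6.58 CPM in TERT(High) cells and 20.7 ± 5.54 CPM in TERT(Low) cells (SD, n = 3 each), a log2 fold change of 1.23 with a standard error (SE) of 0.23 and an edgeR adjusted p of 0.0341. Within mice 1, 2 and 3 the log2 differences, of CPM with 0.5 added, were 1.25, 1.03 and 1.42. In bulk RNA, more RNA per cell and more cells of a kind that expresses the gene cannot be told apart.

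Ghr (chr15:3317755-3583352), the growth hormone receptor, had 363, 297 and 369 CPM in TERT(High) cells and 246, 228 and 344 CPM in TERT(Low) cells. It was higher in TERT(High) cells of each mouse, but the TERT(Low) library of mouse 3 lay above the TERT(High) library of mouse 2, so the groups overlapped. The means, 343 ± 40.2 CPM in TERT(High) cells and 272 ± 62.2 CPM in TERT(Low) cells (SD, n = 3 each), gave a log2 fold change of 0.33 (SE 0.20) that did not pass the test (edgeR adjusted p = 0.339). Part of the gene lies under the long non-coding RNA gene Gm41254, and no source used here says whether the counting used strand.

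Of 6 tested receptors and partners edgeR called Insr higher and 0 lower, beside 4.43% and 3.71% of all tested genes. Both DESeq2 and the blocked edgeR fit called 2 higher, Insr and Igf2r, beside 11.3% and 5.43% of all. Igf2r, a receptor that clears IGF2 from the cell surface, had 22.4, 28.2 and 20.6 CPM in TERT(High) cells and 13.1, 14.9 and 6.32 CPM in TERT(Low) cells. All TERT(High) values were above all TERT(Low) values. Its log2 fold change was 1.06 (SE 0.33), with an edgeR adjusted p of 0.0907, or 0.0472 with the mouse as a block, and a DESeq2 adjusted p of 0.0158. The antisense gene Airn overlaps part of Igf2r.

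Of the docking proteins, Irs1 was called higher and Irs2 was not called, and the difference between them was not tested. Irs1 (chr1:82233105-82291439) had 6.32, 5.45 and 6.64 CPM in TERT(High) cells, against 3.17, 3.55 and 2.35 CPM in TERT(Low) cells. All TERT(High) values were above all TERT(Low) values, and the log2 differences of Irs1 within mice 1, 2 and 3 were 0.89, 0.55 and 1.32. Its log2 fold change was 1.02 with an SE of 0.22 (edgeR adjusted p = 0.0416), from 387, 330 and 387 counts in TERT(High) libraries and 233, 186 and 124 counts in TERT(Low) libraries.

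Irs2 (chr8:10984681-11008929), the docking protein whose gene FOXO1 switches on when insulin is low, had 1.81, 11.7 and 3.33 CPM in TERT(High) cells and 1.84, 4.83 and 0.949 CPM in TERT(Low) cells. Mouse 2 was the highest in both populations, mouse 1 showed next to no difference between its populations, and the groups overlapped. The log2 fold change of 1.15 was near that of Irs1, but its SE was 0.84 and it did not pass the test (edgeR adjusted p = 0.426, and 0.147 with the mouse as a block). Without TERT(High) replicate 2 its log2 fold change was -0.0051. A long non-coding RNA gene, 9530052E02Rik, overlaps Irs2 at its start.

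The promoter windows of both docking protein genes are shown because they hold the same pair of short motifs, while the RNA of Irs1 varied mainly with the population and that of Irs2 mainly with the mouse. Windows run from 250 bases before to 50 bases after the annotated start, on the strand of the gene, and are RefSeq sequence of GRCm38.p6. Irs1 is at chr1:82291390-82291689 and Irs2 at chr8:11008880-11009179, both on the minus strand. Capitals mark CACGTG, the E-box that basic helix-loop-helix factors bind, and TGTTTTG, the form of the insulin response element known from the Irs2 promoter.
Irs1: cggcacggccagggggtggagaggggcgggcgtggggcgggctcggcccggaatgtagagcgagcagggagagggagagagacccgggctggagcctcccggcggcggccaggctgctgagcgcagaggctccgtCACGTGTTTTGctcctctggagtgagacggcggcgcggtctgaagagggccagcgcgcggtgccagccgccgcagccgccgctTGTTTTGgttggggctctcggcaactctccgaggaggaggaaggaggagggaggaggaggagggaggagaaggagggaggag
Irs2: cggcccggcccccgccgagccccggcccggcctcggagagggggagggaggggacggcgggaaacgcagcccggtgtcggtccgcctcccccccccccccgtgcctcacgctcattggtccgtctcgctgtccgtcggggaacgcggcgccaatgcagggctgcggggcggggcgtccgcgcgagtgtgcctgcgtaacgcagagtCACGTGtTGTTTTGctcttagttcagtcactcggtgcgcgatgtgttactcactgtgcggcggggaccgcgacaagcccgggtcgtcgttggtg
In Irs1 the E-box begins 115 bases before the start and shares its last bases with an insulin response element that begins 111 bases before it, and a second such element begins 32 bases before the start. In Irs2 the E-box begins 44 bases before the start and the insulin response element 37 bases before it. Both strands were searched. Of 32851 promoter windows of the same length, 7.15% held the E-box, 6.28% held TGTTTTG and 0.408% held both. Of the 15 windows that matched 9 of the 10 genes by symbol, only these 2 held either motif. The 2 motifs were chosen after the sequences had been read, and a match is a description of letters. Insr was not matched.

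Pik3r1 (chr13:101680761-101768217) encodes the regulatory subunits that tie PI 3-kinase to IRS proteins. It had 56.2, 37.5 and 60.6 CPM in TERT(High) cells, against 21.5, 22.9 and 26.6 CPM in TERT(Low) cells. The lowest TERT(High) library, mouse 2, was still above the highest TERT(Low) library. The means were 51.4 ± 12.3 CPM in TERT(High) cells and 23.7 ± 2.605 CPM in TERT(Low) cells (SD, n = 3 each), with a log2 fold change of 1.12 (SE 0.22; edgeR adjusted p = 0.0348).

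Akt2 (chr7:27591552-27640826), the AKT isoform that carries most of the insulin signal in liver, had 71.4, 76.8 and 74.8 CPM in TERT(High) cells, against 98.7, 99.6 and 106 CPM in TERT(Low) cells. These were the most even values of the 10 genes: every TERT(High) library lay below every TERT(Low) library, with little difference between mice. The means were 74.3 ± 2.71 CPM in TERT(High) cells and 102 ± 4.29 CPM in TERT(Low) cells (SD, n = 3 each). The log2 fold change of -0.45 (SE 0.12) missed the threshold in edgeR (adjusted p = 0.0678) and passed it in DESeq2 (adjusted p = 0.00172). Its within-mouse log2 differences were -0.46, -0.37 and -0.51. Akt1, the related kinase of most tissues, had 38.9, 46.1 and 40.8 CPM in TERT(High) cells and 46.95, 45.9 and 46.2 CPM in TERT(Low) cells, and the groups overlapped (log2 fold change -0.15, edgeR adjusted p = 0.524).

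The first of the 4 Akt2 promoter windows (chr7:27591302-27591601, plus strand) is shown because it alone of the 15 windows held TTCNNNGAA, the palindrome that STAT factors bind, here in capitals.
Akt2: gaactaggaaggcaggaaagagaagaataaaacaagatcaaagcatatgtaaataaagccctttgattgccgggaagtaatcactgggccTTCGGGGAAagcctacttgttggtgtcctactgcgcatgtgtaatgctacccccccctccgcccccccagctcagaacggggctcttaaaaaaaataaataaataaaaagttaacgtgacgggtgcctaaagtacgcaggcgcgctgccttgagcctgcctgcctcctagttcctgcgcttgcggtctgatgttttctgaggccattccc
The match begins 160 bases before the start. Of all 32851 windows 8.30% held this motif. TGTTTAC, a core motif of FOXO and other forkhead factors, was in 3.65% of all windows and in 0 of the 15. No match says only that these letters are not in the window.

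Foxo1 (chr3:52268337-52350109), the transcription factor that AKT inactivates, had 21.6, 38.2 and 14.1 CPM in TERT(High) cells and 11.6, 27.9 and 9.52 CPM in TERT(Low) cells. The mice were in the same order in both populations, with mouse 2 highest and mouse 3 lowest, and within each mouse the TERT(High) value was the higher one. The groups overlapped. Its log2 fold change of 0.59 had an SE of 0.52 (edgeR adjusted p = 0.511). With the mouse as a block the estimate was 0.64 with an SE of 0.15, and the edgeR adjusted p of 0.0593 still missed the threshold.

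Jak2 (chr19:29251803-29313095), the kinase that growth hormone and many cytokine receptors use, had 3.48, 2.97 and 4.804 CPM in TERT(High) cells, against 1.62, 0.974 and 1.59 CPM in TERT(Low) cells. All TERT(High) values were above all TERT(Low) values. It had the largest fold of the 10 genes at one of their lowest levels, with 213, 180 and 280 counts in TERT(High) libraries and 119, 51 and 84 counts in TERT(Low) libraries. Its log2 fold change was 1.42 with an SE of 0.31, and the edgeR adjusted p was 0.0417. Its level was of the same order as that of single endothelial markers such as Kdr, a receptor of vascular endothelial growth factor, which had 6.28, 7.22 and 7.79 CPM in TERT(High) cells and 2.38, 3.07 and 2.77 CPM in TERT(Low) cells. The part of endothelial RNA in the Jak2 difference was not tested.

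Stat5b (chr11:100780731-100859004), the factor that JAK2 activates at the growth hormone receptor, had 17.6, 54.6 and 35.1 CPM in TERT(High) cells and 20.6, 44.5 and 29.3 CPM in TERT(Low) cells. Mouse 2 was highest and mouse 1 lowest in both populations, and the populations of a mouse lay close together. Its log2 fold change of 0.18 (SE 0.45) did not pass the test (edgeR adjusted p = 0.818). Stat5a, its near-identical neighbour, had 6.01, 25.7 and 15.7 CPM in TERT(High) cells and 7.85, 16.8 and 8.499 CPM in TERT(Low) cells, with the same order of mice in TERT(High) and in TERT(Low) libraries as Stat5b. Reads that match both genes could be split between them.

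Igf1 (chr10:87858265-87937047), the hormone gene that STAT5B drives in liver, had 428, 337 and 451 CPM in TERT(High) cells and 283, 406 and 429 CPM in TERT(Low) cells. The direction differed between mice: the TERT(High) library was higher in mice 1 and 3 and lower in mouse 2. The means were 405 ± 60.3 CPM in TERT(High) cells and 373 ± 78.2 CPM in TERT(Low) cells (SD, n = 3 each), and the log2 fold change of 0.12 (SE 0.21) did not pass the test (edgeR adjusted p = 0.739). The antisense gene Igf1os overlaps the 5′ part of Igf1.

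**Figure D2:**
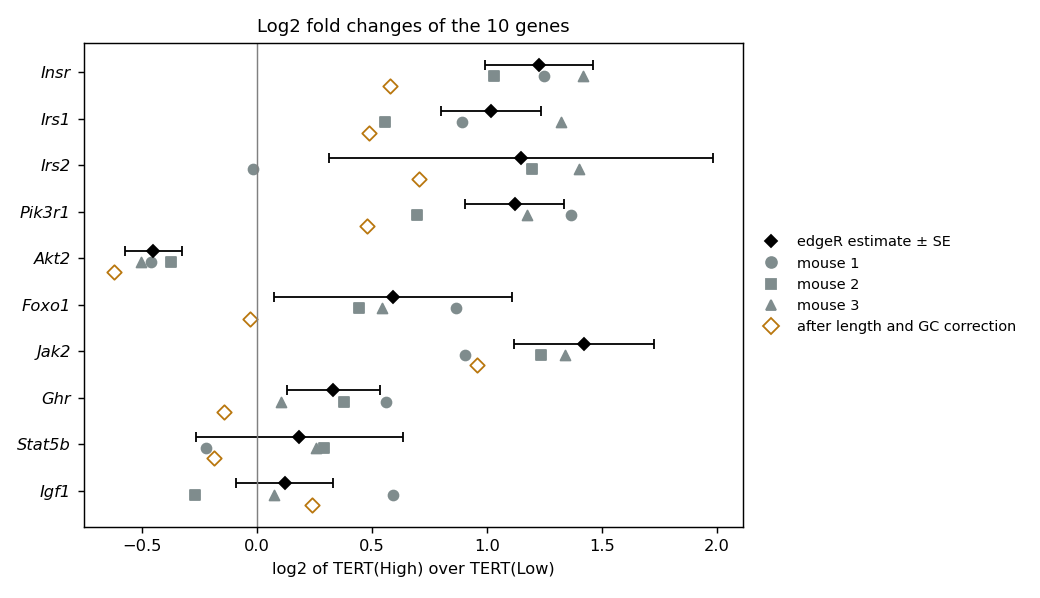
Log2 fold changes, TERT(High) over TERT(Low), of the 10 genes. Black diamonds are edgeR estimates with bars of 1 SE, grey symbols are the within-mouse log2 differences of CPM + 0.5, and open diamonds are edgeR estimates after a correction for transcript length and GC content. Akt2 alone has all 3 mice left of 0, and the open diamonds of Insr, Irs1, Pik3r1 and Jak2 lie between 0.48 and 0.96.

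Of the 10 genes, 5 varied mainly between populations and 3 mainly between mice, while Ghr was divided nearly evenly and Igf1 lay mostly in neither. The sum of squares of log2(CPM + 0.5) over the 6 libraries was divided into a share between populations, a share between mice and a rest, as a description. The share between populations was 95.95% for Akt2, 88.02% for Irs1, 85.6% for Insr, 84.5% for Pik3r1 and 84.5% for Jak2. The share between mice was 94.8% for Stat5b, 78.2% for Foxo1 and 71.5% for Irs2. Ghr had 41.2% between populations and 46.8% between mice. Igf1 had 7.86% between populations, 36.3% between mice and 55.9% in the rest. Over all tested genes the medians were 33.0% between populations, 36.4% between mice and 16.1% in the rest.

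**Figure D3:**
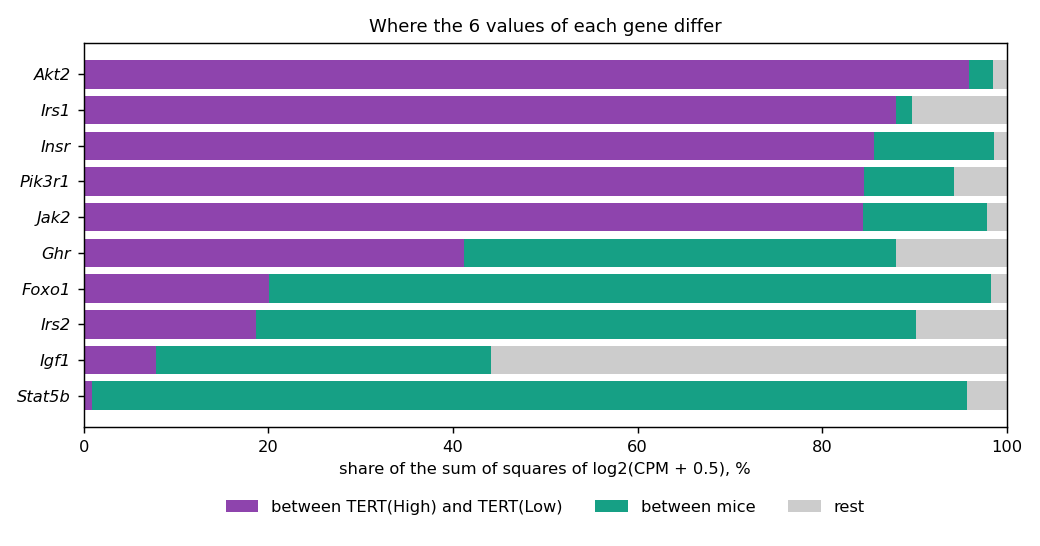
Share (%) of the sum of squares of log2(CPM + 0.5) over the 6 libraries that lay between populations, between mice and in the rest, for each of the 10 genes, ordered by the first share. Akt2, Irs1, Insr, Pik3r1 and Jak2 have over 80% between populations, and Foxo1, Irs2 and Stat5b have over 70% between mice.

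Mouse 2 had the highest level of Insr, Irs2, Foxo1 and Stat5b in both populations. Of the 22 FOXO factors and FOXO1 targets, which include Insr, Irs2 and Foxo1, 12 were highest in mouse 2 in both populations, 4 in mouse 1 and 1 in mouse 3, where 20.9%, 13.2% and 11.2% of all tested genes were. These counts describe 3 mice, after the pattern had been seen, and carry no test. Igfbp1, Pck1 and G6pc are 3 of the 12, and Pdk4 and Mttp are 2 of the 4 that were highest in mouse 1. Igfbp1, a secreted binding protein of IGF1 that insulin represses, had 8.49, 82.2 and 11.2 CPM in TERT(High) cells and 9.77, 55.4 and 8.25 CPM in TERT(Low) cells. Pck1, the enzyme that commits carbon to glucose production, had 297, 1333 and 551 CPM in TERT(High) cells and 226, 755 and 592 CPM in TERT(Low) cells. G6pc, the last enzyme of glucose release, had 42.97, 129 and 35.6 CPM in TERT(High) cells and 53.96, 102 and 37.03 CPM in TERT(Low) cells. Mttp, which loads lipid onto lipoproteins, had 398, 316 and 279 CPM in TERT(High) cells and 350.3, 295 and 219.8 CPM in TERT(Low) cells. Igfbp1, Pck1 and G6pc had overlapping groups, and the edgeR adjusted p between populations was 0.804 for Igfbp1, 0.665 for Pck1 and 0.927 for G6pc. Of 24 genes of the male pattern 12 were highest in mouse 1 in both populations, 3 in mouse 2 and 1 in mouse 3. Of 24 genes of the female pattern 4 were highest in mouse 1, 3 in mouse 2 and 11 in mouse 3. Hsd3b5 and Sult2a2 were chosen from these lists by their values. Hsd3b5, a steroid-metabolising enzyme of the male pattern, had 24.1, 2.23 and 0.3603 CPM in TERT(High) cells and 39.3, 0.668 and 0.3604 CPM in TERT(Low) cells. Sult2a2, a sulfotransferase of the female pattern, had 0, 0.595 and 145 CPM in TERT(High) cells and 0.2997, 0.0382 and 241 CPM in TERT(Low) cells. Hsd3b5 was high in both libraries of mouse 1 and Sult2a2 in both libraries of mouse 3.

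Transcript length moved with the fold change across all genes, and most of the 10 have long transcripts. Their median transcript length was 5768 nt, against 2962.5 nt over the tested genes with a length, and 7 of 10 were in the longest quintile of genes (4906 nt and more). In that quintile the median log2 fold change was 0.65, with 15.2% of genes called higher and 4 genes called lower. In the shortest quintile it was -0.46, with 1 gene called higher and 373 called lower. Spearman's correlation of log2 fold change with transcript length was 0.48 across 12548 genes, which share libraries and are not independent replicates. Insr (9355 nt), Irs1 (9144 nt), Pik3r1 (7113 nt) and Jak2 (5030 nt) are in the longest quintile, Akt2 (4544 nt) and Ghr (4175 nt) in the next, and Igf1 (2292 nt in the transcript used, 7052 nt in its longest) in the second shortest.

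Genes of the next quintile, that of Akt2 and Ghr, had a median log2 fold change of 0.28. After a correction of each library for transcript length and GC content, the log2 fold change was 0.58 for Insr, 0.49 for Irs1, 0.48 for Pik3r1, 0.96 for Jak2 and -0.62 for Akt2. None of the 10 was then called by edgeR, and nor was any other gene (smallest edgeR adjusted p 0.217, with 1603 genes at an unadjusted p under 0.05, among them Jak2 and Akt2). The median over the 10 genes was 0.36 after the correction. Beyond this correction, the part of transcript length in the differences of the 10 genes was not tested.

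**Figure D4:**
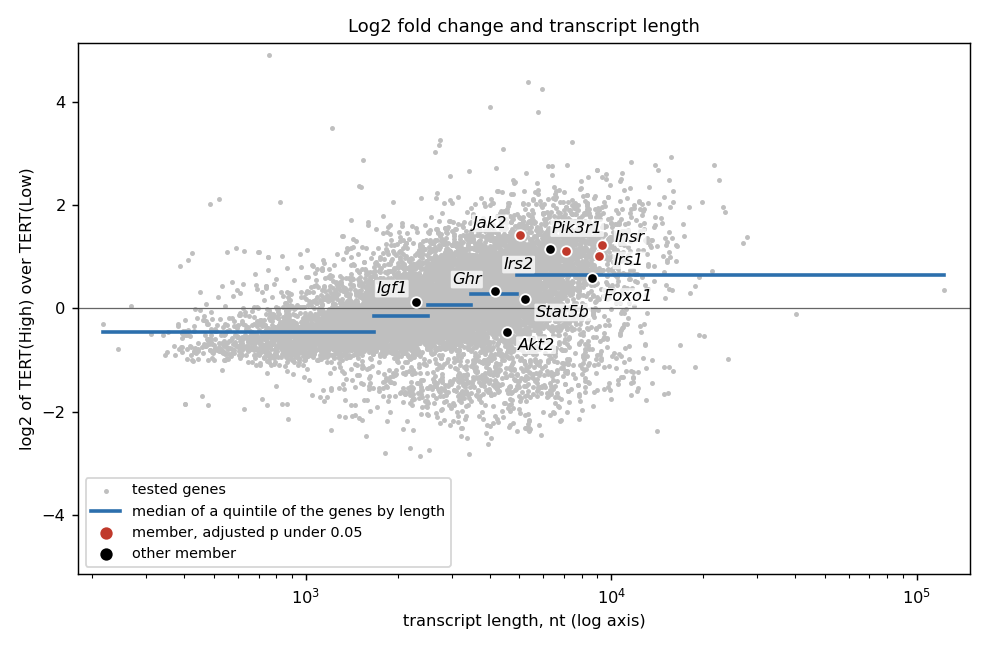
Log2 fold change, TERT(High) over TERT(Low), against transcript length (log axis) for the tested genes with an annotated transcript. Blue lines are medians of quintiles of the genes by length, red points the 4 genes with an edgeR adjusted p under 0.05 and black points the other 6. The medians climb from -0.46 in the shortest quintile to 0.65 in the longest, and Akt2 lies below the line of its quintile.

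The surrounding pathway was described by 12 lists, which hold 188 tested genes besides the 10. The lists were chosen with earlier results of these data known. Their shares beside those of all genes are therefore a description and carry no test. The median log2 fold change of these 188 was 0.19. By edgeR 13 of them (6.91%) were called higher and 0 lower, beside 4.43% and 3.71% of all tested genes. Before adjustment, p was under 0.05 for 44 (23.4%) as higher and for 4 (2.13%) as lower, beside 16.3% and 12.4% of all. DESeq2 called 29 (15.4%) higher and 5 (2.66%) lower, beside 11.3% and 9.6% of all. Blocked by mouse, edgeR called 17 (9.04%) higher and 0 lower, beside 5.43% and 4.3% of all. All 11 tested PI 3-kinase subunits had a positive log2 fold change (10 of 11 with upper-quartile scaling or DESeq2-type size factors, and 8 of 11 after the length and GC correction), with a median of 0.77, and 4 were called higher. Of all tested genes 49.2% had a positive one. The list's median transcript length was 5257 nt, in the longest quintile, whose own median log2 fold change was 0.65. Besides Pik3r1 these were Pik3ca and Pik3cb, the catalytic subunits downstream of insulin, and Pik3c2a, a class II enzyme of membrane traffic. Pik3ca had 10.04, 10.7 and 11.4 CPM in TERT(High) cells, against 4.99, 5.17 and 5.94 CPM in TERT(Low) cells. Pik3cb had 11.8, 11.2 and 9.9 CPM in TERT(High) cells, against 6.51, 6.11 and 6.68 CPM in TERT(Low) cells. Neither overlapped between groups, and the log2 fold changes were 0.997 for Pik3ca, 0.77 for Pik3cb and 1.79 for Pik3c2a (edgeR adjusted p = 0.0277, 0.0364 and 0.03097).

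Among 14 docking proteins and adaptors, edgeR called 3 higher and 0 lower, edgeR blocked by mouse 2 and 0, and DESeq2 4 and 1. Of all tested genes edgeR called 4.43% higher and 3.71% lower, edgeR blocked by mouse 5.43% and 4.3%, and DESeq2 11.3% and 9.6%. These shares also stand beside the calls of the lists below. The median transcript length of the 14 was 4353.5 nt, in the quintile where 5.26% of genes were called higher. The edgeR calls among the 14 were Irs1, Sos1 and Sos2, of which Sos1 and Sos2 are exchange factors that activate RAS. Sos1 had 13.04, 12.8 and 11.7 CPM in TERT(High) cells, against 3.58, 4.95 and 3.79 CPM in TERT(Low) cells (log2 fold change 1.61, edgeR adjusted p = 0.0241). That of Sos2 was 1.73 (edgeR adjusted p = 0.0277). In the branch of AKT, mTOR and GSK3, edgeR called 3 of 29 higher and 0 lower, and the list median was 0.20. The median transcript length of this list, 4544 nt, is in the same quintile as that of the docking proteins. Blocked by mouse, edgeR had 4 calls, all higher. In DESeq2 there were 8 higher and 2 lower calls, the lower ones being Akt2 and Rps6, a ribosomal protein that S6 kinase phosphorylates. Without the block the edgeR calls were Rictor, the defining subunit of mTOR complex 2, Deptor, an inhibitor of mTOR, and Pde3b, the phosphodiesterase through which insulin lowers cAMP, with log2 fold changes of 1.42, 1.14 and 0.65. The edgeR adjusted p were 0.0277, 0.0418 and 0.0475, and that of Pde3b was 0.0607 with the mouse as a block. The block fit called in its place Gsk3b, a kinase that AKT inhibits, and Rps6kb1, the S6 kinase (edgeR adjusted p = 0.0449 and 0.0455, against 0.0642 and 0.0872 without the block).

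Of 24 tested inhibitors of insulin signalling, edgeR called 1 higher and 0 lower, and DESeq2 called 3 higher and 1, Ahsg, lower. Ahsg, a plasma inhibitor of the insulin receptor, had 10690, 10890 and 9898 CPM in TERT(High) cells and 13700, 18810 and 12840 CPM in TERT(Low) cells. Every TERT(High) value lay below every TERT(Low) value (log2 fold change -0.53, edgeR adjusted p = 0.138, DESeq2 adjusted p = 0.0280). Of 22 FOXO factors and hepatic FOXO1 targets, edgeR called Insr higher and 0 lower, also with the mouse as a block. DESeq2 called 3 higher and 1 lower, adding Ppargc1a and Creb1, a coactivator and a transcription factor of the fasting response, as higher (DESeq2 adjusted p = 0.0162 and 0.0129) and the apolipoprotein gene Apoc3 as lower (DESeq2 adjusted p = 0.00175). Tat, a gluconeogenic amino acid enzyme and the most abundant of them, had a log2 fold change of -0.50 (edgeR adjusted p = 0.531). Of 16 lipogenic and glycolytic genes that insulin induces, 0 were called by edgeR and 1, Scd1, with the mouse as a block, 3 were higher at an unadjusted p under 0.05, and DESeq2 called 3 higher and 0 lower. Scd1, the desaturase that makes oleate, had 1876, 1544 and 1740 CPM in TERT(High) cells and 1263, 1084 and 1113 CPM in TERT(Low) cells, and Thrsp, a lipogenic regulator, had 479, 207 and 505 CPM in TERT(High) cells and 764, 498 and 639 CPM in TERT(Low) cells. For Scd1 the groups did not overlap, and its edgeR adjusted p was 0.0641, or 0.0482 with the mouse as a block. The Thrsp groups overlapped (edgeR adjusted p = 0.272).

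On the growth hormone side, all 20 tested JAKs, STATs and cofactors had a positive log2 fold change (16 of 20 once corrected for length and GC), with a median of 0.49, beside 49.2% positive among all tested genes. The median transcript length of the list, 4187.5 nt, is in the quintile whose median log2 fold change was 0.28. By edgeR 4 were called higher and 0 lower, and by DESeq2 5 and 0. Besides Jak2 the edgeR calls were Il6st, the shared receptor of the interleukin 6 family, Onecut1, a liver transcription factor, and Nr3c1, the glucocorticoid receptor. Il6st had 51.5, 67.8 and 51.3 CPM in TERT(High) cells, against 29.3, 27.9 and 19.5 CPM in TERT(Low) cells. Nr3c1 had 41.5, 38.2 and 43.5 CPM in TERT(High) cells, against 14.1, 21.9 and 22.9 CPM in TERT(Low) cells. Neither overlapped between groups, with log2 fold changes of 1.15 for Il6st, 1.06 for Nr3c1 and 1.59 for Onecut1 (edgeR adjusted p = 0.0326, 0.0366 and 0.0353).

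Of 13 SOCS and phosphatase inhibitors of growth hormone signalling 0 were called by edgeR (2 higher at an unadjusted p under 0.05, and 1 by DESeq2), with a median of 0.078. Cish, a feedback inhibitor that STAT5 induces, had 45.7, 15.6 and 38.1 CPM in TERT(High) cells and 48.95, 33.1 and 34.01 CPM in TERT(Low) cells, with overlap (edgeR adjusted p = 0.741). Ptpn11, a phosphatase that binds the activated receptors, had a log2 fold change of 0.45 (edgeR adjusted p = 0.0826) and was the 1 called higher by DESeq2. Of 10 genes of the IGF system 0 were called by edgeR (1 higher at an unadjusted p under 0.05), and Igf2r, given above, was the 1 called higher by DESeq2 and with the mouse as a block. The binding proteins Igfbp2 and Igfbp4 were lower in every TERT(High) library than in any TERT(Low) library. Igfbp4 had 1375, 1120 and 1096 CPM in TERT(High) cells and 1519, 1778 and 1408 CPM in TERT(Low) cells (edgeR adjusted p = 0.191). Igfbp2 had 327, 428 and 438 CPM in TERT(High) cells and 544, 460.2 and 561 CPM in TERT(Low) cells (edgeR adjusted p = 0.198).

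Of 24 genes of the male pattern, whose median was -0.23, 0 were called by edgeR (2 higher at an unadjusted p under 0.05). C8a, a subunit of complement component C8, was called higher by DESeq2 (adjusted p = 0.0196) and by edgeR with the mouse as a block (adjusted p = 0.0411). The most abundant of the list, Gstp1, a glutathione transferase, and Mup3, a major urinary protein whose reads can be shared with close copies, had log2 fold changes of -0.51 and 0.024 (edgeR adjusted p = 0.464 and 0.973). Of 24 genes of the female pattern edgeR called 1 higher and 0 lower, and DESeq2 called 1 higher and 1, A1bg, lower. The 1 called higher by both was Trim24, a transcriptional corepressor, at 12.8, 21.2 and 14.1 CPM in TERT(High) cells, against 7.72, 8.88 and 7.76 CPM in TERT(Low) cells (log2 fold change 0.98, edgeR adjusted p = 0.0485). Cyp2a4, a steroid hydroxylase with close copies, had a log2 fold change of -0.19 (edgeR adjusted p = 0.932).

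**Figure D5:**
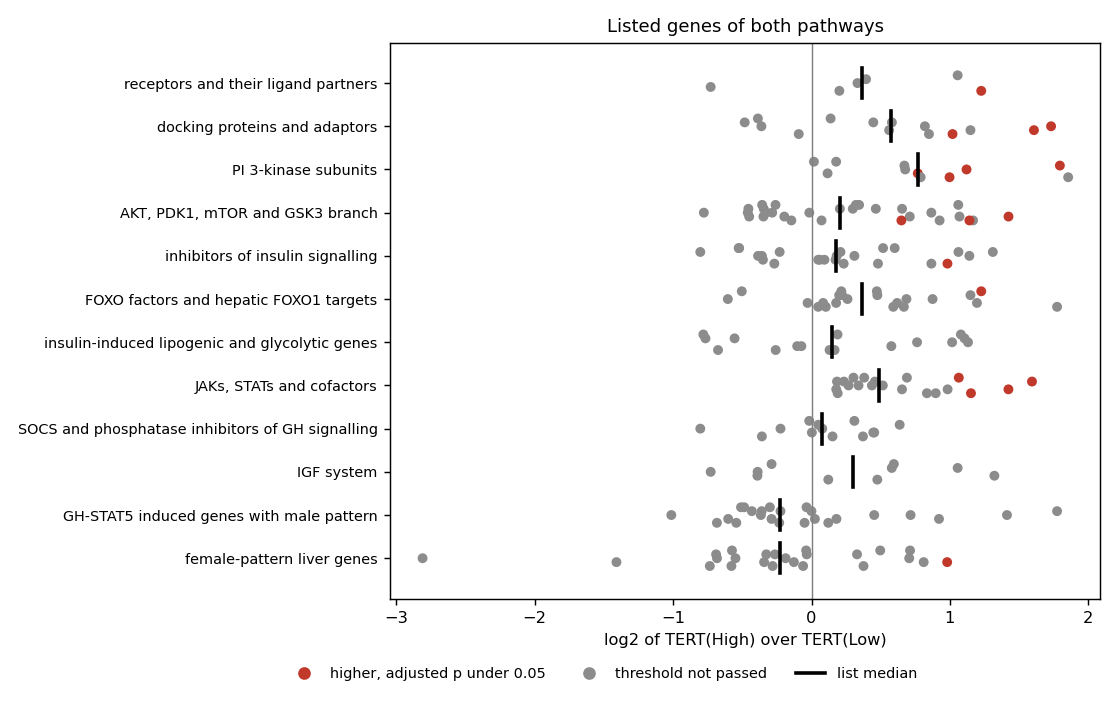
Log2 fold changes, TERT(High) over TERT(Low), of the tested genes of the 12 lists. Each point is a gene, red where it is higher with an edgeR adjusted p under 0.05, and black bars are list medians. PI 3-kinase subunits (median 0.77) and JAKs, STATs and cofactors (median 0.49) have no point left of 0, and both lists of sex-biased genes have medians of -0.23; with other scalings 1 PI 3-kinase subunit falls left of 0.

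Set against each other per length, the 10 genes spanned a wide range. In TERT(High) cells the level in CPM per kilobase of transcript was 177 ± 26.3 for Igf1, 82.2 ± 9.63 for Ghr and 16.4 ± 0.596 for Akt2 (mean ± SD, n = 3), against 163 ± 34.1 for Igf1, 65.3 ± 14.9 for Ghr and 22.4 ± 0.944 for Akt2 in TERT(Low) cells. Igf1 falls below Ghr, to 57.5 CPM per kilobase in TERT(High) cells, if its longest transcript is used. Pik3r1 (7.23 ± 1.73), Stat5b (6.86 ± 3.55) and Insr (5.17 ± 0.703) followed in TERT(High) cells, with SD ranges that touch, against 3.33 ± 0.366 for Pik3r1, 6.04 ± 2.32 for Stat5b and 2.21 ± 0.592 for Insr in TERT(Low) cells. Foxo1 was at 2.84 ± 1.42 CPM per kilobase in TERT(High) cells and 1.89 ± 1.17 in TERT(Low) cells. Irs2 (0.889 ± 0.845), Jak2 (0.746 ± 0.188) and Irs1 (0.671 ± 0.0673) were lowest in TERT(High) cells and did not differ beyond their spread, against 0.402 ± 0.322 for Irs2, 0.278 ± 0.0728 for Jak2 and 0.331 ± 0.0671 for Irs1 in TERT(Low) cells.

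For Insr, Ghr and Igf1 the genes whose 3 within-mouse log2 differences lay nearest were taken from 7246 tested genes of at least 5 CPM, by Euclidean distance. Nearest to Insr were Rabep1 (distance 0.115), Zhx1 (0.136) and U2surp (0.155). Each was also called higher (edgeR adjusted p = 0.0277, 0.0274 and 0.0277), which the choice by nearness to Insr made likely. Nearest to Ghr were Zfand4 (0.0490), Utp3 (0.0567) and Psmd12 (0.0645), and nearest to Igf1 were Mob4 (0.0899), Gk (0.120) and Srsf10 (0.120). None of these 6 was called.

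In the authors' deposited table of results, 6 of the 10 genes were called higher, where 15.8% of its 10858 genes were, and 1 lower, where 13.4% were. The log2 fold change in the authors' deposited table was 1.17 (adjusted p = 3.74e-09) for Insr, 0.91 (adjusted p = 0.00613) for Irs1, 1.01 (adjusted p = 1.43e-05) for Pik3r1 and 1.22 (adjusted p = 8.21e-04) for Jak2. In the authors' deposited table Irs2 stood at 0.85 (adjusted p = 0.0409), Foxo1 at 0.54 (adjusted p = 0.0267) and Akt2 at -0.45 (adjusted p = 0.0208). The authors' deposited table thus called Irs2 and Foxo1, which neither edgeR nor DESeq2 did here on all 6 libraries (DESeq2 adjusted p = 0.311 and 0.442). That DESeq2 run had group as the only term. Its SE was 0.78 for Irs2 and 0.50 for Foxo1, against 0.34 and 0.20 in the authors' deposited table. With the mouse as a block, edgeR gave an SE of 0.39 for Irs2 and 0.15 for Foxo1, and called neither. The reason for the difference from the authors' deposited table was not tested. The authors' deposited table gave 0.31 (adjusted p = 0.198) for Ghr, 0.094 (adjusted p = 0.743) for Stat5b and 0.10 (adjusted p = 0.754) for Igf1.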

How the data were processed

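Polyadenylated RNA of sorted hepatocytes was sequenced, per the labels' protocols with a KAPA stranded mRNA kit. Trim Galore 0.4.0, TopHat2 2.0.13, DESeq2 and the genome mm10 were used, per the submitters' processing notes; the sources used here do not name the read counter, strand setting or annotation. The first deposited table holds unscaled counts, 1 column a library. The authors' second table holds, per the file headers, their DESeq2 mean signal (baseMean), fold change and its log2 with standard error, a Wald score (stat), and p-values; the direction of its fold changes was read from the counts.

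The members and gene lists were chosen with earlier results of these data known. Counts were fitted with edgeR 4.0.16 (R 4.3.3; filterByExpr, TMM, robust quasi-likelihood, group only, Benjamini-Hochberg adjusted p under 0.05), and the fit ignores the pairing. It was also run on simulated counts. These held neither a mouse effect nor a length trend, so that run could not show how the fit deals with either. An SE is the size of the log2 fold change over the square root of the test's F. Both libraries of a mouse came from the same animal, per the labels, and deviations from the group means correlated at 0.13, 0.591 and 0.435 within mice 1, 2 and 3. The common coefficient of biological variation was 40.7% without and 29.6% with a block for the mouse.

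Alternatives changed scaling, filter, tool (DESeq2 1.42.0, limma-voom of limma 3.58.1), threshold, libraries, block, pseudocount, length and GC. Named are the 10 genes, Tert, up to 4 called genes of each list by size of change (or its most abundant, up to 2), and the genes nearest to Insr, Ghr and Igf1. Others were named after their values were seen. A listed gene that this rule names is not reported here. Coordinates and promoters are RefSeq's (GRCm38.p6). Transcript lengths, of the transcript with the longest coding sequence, are from GENCODE M21 and cover 94.4% of tested genes. Tables and plots were made in Python 3.11.15 with matplotlib 3.10.9, numpy 2.4.6 and pandas 2.3.3.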

Additional observations from a re-analysis of the deposited data

How the results depend on the processing

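Of the tested genes, 588 were called higher and 493 lower. DESeq2 called 1508 and 1276, a threshold of 0.1 called 1421 and 1138 (with 4 of the 10 genes higher and 1, Akt2, lower, as in DESeq2), and a strict filter of 1 CPM in every library called 1043 and 691. The split moved with the scaling: 542 higher and 712 lower with upper-quartile scaling, and 628 and 19 with library totals alone, which also shifted the median of all genes to 0.14. Akt2 kept its direction there, at -0.30. After the length and GC correction 0 genes were called higher and 0 lower, with or without the replicate block, and 0 of the 10. The median log2 fold change of the 10 was then 0.36, or 0.38 with the block, and 0.49 under the strict filter, where Irs2 and Jak2 were not tested. In the paired fit with the replicate block 721 genes were called higher and 571 lower, and 3 of the 10 higher; among the genes named in the report it ended the calls of Irs1 and Pde3b and gave those of Scd1, Igf2r, C8a, Gsk3b and Rps6kb1.

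With single libraries or mice left out, in edgeR or DESeq2, 0 to 1704 genes were called higher, 0 to 1677 lower, 0 to 5 of the 10 higher and 0 to 1 lower. In edgeR alone these ranges were 0 to 937, 0 to 713, 0 to 1 and 0 to 0, and in DESeq2 alone 761 to 1704, 808 to 1677, 3 to 5 and 1 to 1. The median of the 10 then ran over 0.30 to 1.13. Log2 fold changes ran over -0.012 to 2.02 for Irs2, -0.30 to 0.53 for Stat5b, -0.083 to 0.29 for Igf1, -0.84 to 0.017 for Tat, -0.58 to 0.091 for Cish, -0.31 to 0.33 for Mup3 and -1.25 to 0.64 for Cyp2a4. None of these 7 genes was called in the complete set of libraries.

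Signs also turned after the length and GC correction, without and with the replicate block, for Ghr (-0.15 and -0.14), Stat5b (-0.19 and -0.15), Igfbp2 (0.029 and 0.023), Gstp1 (0.075 and 0.053) and Cyp2a4 (0.082 and 0.45), and without the block for Foxo1 (-0.030). Mup3 was at -0.040 with upper-quartile scaling. Cyp2a4 was at 0.020 with library totals, 0.22 in limma-voom and 0.19 with the block. The cause was not tested. Insr, Irs1, Pik3r1, Jak2 and Akt2 kept their direction under every alternative run. The lowest counts of the 10 genes were those of Irs2, at 50 to 710 a library, Jak2, at 51 to 280, and Irs1, at 124 to 387. The part of counting noise in their spread was not tested.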
